A study of Mus musculus with 17 samples.

Results

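The 10 genes described here, Cdkn1a, Mdm2, Ccng1, Bax, Phlda3, Zmat3, Trp53inp1, Plk2, Pmaip1 and Btg2, are textbook transcriptional targets of p53. They were fixed by name, with no cutoff on a measured value, although earlier results of these data were known, and are 10 of the 55536 gene identifiers in the RNA-seq tables. They were read in hepatocytes of mice in which Cas9 had cut either a β-catenin binding site or a control locus.

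p53 is held low in unstressed cells by the ubiquitin ligase Mdm2, and DNA breaks, including those made by Cas9, can stabilise it through the kinases Atm, Atr, Chek1 and Chek2. Stabilised p53 binds paired half-sites in its targets, which stop the cell cycle (Cdkn1a, Btg2), promote apoptosis (Bax, Pmaip1), or feed back on p53 itself (Mdm2, Ccng1, Trp53inp1). In hepatocytes a transient response of this kind is known after DNA damage and after partial hepatectomy.

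All libraries came from hepatocytes of C57BL/6J mice of the genotype ApcDHep, 3 months old, isolated by collagenase perfusion. Every mouse had received AAV8 carrying SaCas9 constructs 1 month earlier and tamoxifen (2 mg, 7 days). The libraries labelled DLK1DWRE (called WRE-edited here) had the cut at a site that β-catenin binds, which lies upstream of the DLK1/DIO3 locus, and those labelled ROSA26 (Rosa26-edited) at the Rosa26 locus. There were 6 WRE-edited and 5 Rosa26-edited RNA-seq libraries, and 3 of each for miRNA-seq. Both groups carried Cas9, and no unedited group was analysed here, so the comparison concerns the site that was edited and not editing itself. The labels give neither the promoter that drives SaCas9 nor the share of cells edited, and they do not say whether each library is a separate animal, so p-values measure the spread between libraries, which may in part be technical. The names of WRE-edited 4 and WRE-edited 6 share a number whose meaning the labels do not give.

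The RNA-seq libraries fell into 3 runs by their names. Run r770 held WRE-edited 1 to 3 and Rosa26-edited 1 to 3, run r595 held WRE-edited 6 and Rosa26-edited 4 and 5, and run r711 held WRE-edited 4 and 5 with no control. Library totals were 20727036 to 38935135 expected counts. The share of mitochondrial ribosomal RNA was 2.29% to 3.00% for r595 (3 libraries) and 19.0% to 29.1% for the remaining 8. Rian, a noncoding RNA of the edited locus, was 48.7 to 113 CPM (counts scaled to a common library size) in the WRE-edited and 171 to 405 CPM in the Rosa26-edited libraries, with no overlap. Hepatocyte markers summed to 40679 to 52517 CPM in every library. Krt19, Krt7 and Epcam of cholangiocytes, Ly6g of neutrophils and Cd3e, Cd79a and Ms4a1 of lymphocytes were too low to test. The other listed markers of these cell types could be tested, as could all those of stellate cells and fibroblasts, endothelium and macrophages. Sums were 39.5 to 100 CPM for stellate cells and fibroblasts, 85.2 to 141 for endothelium and 152 to 408 for macrophages, so other cell types were present.

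None of the 10 p53 targets passed the test between WRE-edited and Rosa26-edited hepatocytes, and the members did not share a direction. In the fit, 6 had a negative log2 fold change, against 48.3% of all genes, and 4 a positive one, with a median of -0.07 beside 0.01 over all genes tested. Plk2 and Pmaip1 had the most negative values relative to their error, and Cdkn1a the most positive. Btg2 had the most negative value of all, and 1 Rosa26-edited library carried it.

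The test was edgeR's quasi-likelihood test on rounded expected counts with the run as a term, two-sided, with Benjamini-Hochberg adjustment over 14393 genes. All 10 members passed the filter on low counts, and 0 of 10 were called at an adjusted p under 0.05, where 0.00695% of all genes tested were called, which is 1 gene, Rian. Rian was 1 of 3 noncoding RNAs of the edited locus that were checked. All 3 were lower at an unadjusted p under 0.05 (edgeR), with a median log2 fold change of -2.27, and DESeq2 called all 3. The fit can thus miss large changes, so 0 calls do not show that the members were unchanged. The members' adjusted p-values ran from 0.398 to 0.873, and DESeq2 called 0 of the 9 to which it gave a p-value, all but Btg2. At an unadjusted p under 0.05, 2 members were lower, where 5.14% of all genes were, and 0 were higher, where 4.95% were. Across all libraries 0 members had groups that did not overlap, against 0.375% of all genes. WRE-edited means were lower in both r770 and r595 for 5 members, against 28.4% of all genes, and higher in both for 4, against 32.6%. Ccng1 had opposite signs in these runs. A test of whether the edit effect differed between r770 and r595, which rests on 1 WRE-edited library in r595, called 0 of 10 members and 0 of 14582 genes (0%), and DESeq2 also called 0 members. Unadjusted, 0 members reached p under 0.05 there, where 6.52% of all genes did.

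**Figure D1:**
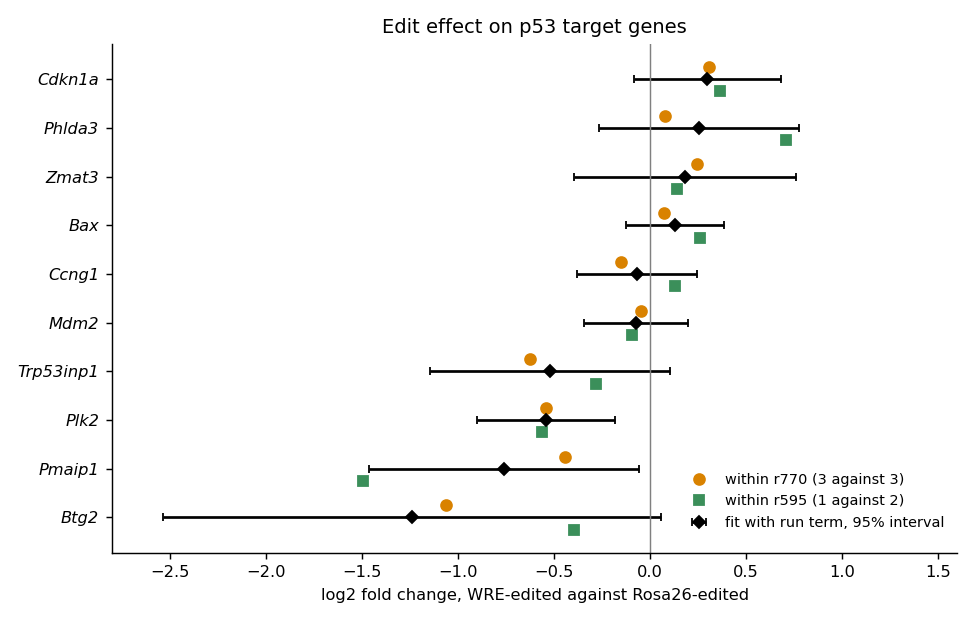
Log2 fold change of each p53 target, WRE-edited against Rosa26-edited (x axis). Diamonds and bars are the fit over 11 libraries with its 95% interval, circles the difference of means of log2 CPM within r770 and squares that within r595; the intervals of Plk2 and Pmaip1 lie below 0 before adjustment, and the others include 0.

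Cdkn1a encodes p21, the cyclin-dependent kinase inhibitor through which p53 halts the cell cycle, and lies on chromosome 17 (chr17:29090979-29100722, GRCm38.p6, plus strand). In r770 it was 22.4, 29.0 and 23.7 CPM in WRE-edited 1, 2 and 3, and 15.6, 22.2 and 23.5 CPM in Rosa26-edited 1, 2 and 3. In r595 it was 13.5 CPM in WRE-edited 6, and 13.9 and 7.97 CPM in Rosa26-edited 4 and 5. In r711 it was 12.0 and 10.8 CPM. The groups overlapped in both runs that hold both, and every r770 library stood above every library of the other runs. The log2 fold change with editing was 0.30 ± 0.18 (SE), with a 95% interval of -0.09 to 0.68 and an adjusted p of 0.569 (edgeR). The difference of means was 0.31 within r770 and 0.36 within r595.

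Cdkn1a was the 1 member of 10 called between the runs, lower in r595 than in r770 by the r595 term of the same fit. Its log2 fold change was -0.89 ± 0.19 (SE), with a 95% interval of -1.32 to -0.47, or 1.86-fold lower, at an adjusted p of 0.00874 (edgeR's quasi-likelihood test). Among all genes 16.2% were called between these runs, 9.07% of all being lower, so 1 in 10 members is near the background. Groups that did not overlap between r595 and r770 were seen for Cdkn1a alone among the members and for 17.9% of all genes. Between the WRE-edited libraries of r711 and those of r770 the difference was -1.12, a value with no test. Runs can differ in animals, handling, library preparation and share of mitochondrial RNA, which cannot be told apart here.

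The Cdkn1a promoter is shown because Cdkn1a is the member called between runs and the only member whose window held the pair pattern defined next. The p53 half-site consensus, 10 bases and its own reverse complement, was searched as 3 purines, C, 2 bases that are A or T, G and 3 pyrimidines, and a pair was searched as CATGNNNNNNCATG, which is also its own reverse complement and can overlap the half-sites. The window of RefSeq (GRCm38.p6) holds 250 bases before and 50 after a transcript start. The 250 bases before the upstream Cdkn1a start, chr17:29090729-29090978 on the plus strand, are printed with half-sites and the pair in capitals.
Cdkn1a: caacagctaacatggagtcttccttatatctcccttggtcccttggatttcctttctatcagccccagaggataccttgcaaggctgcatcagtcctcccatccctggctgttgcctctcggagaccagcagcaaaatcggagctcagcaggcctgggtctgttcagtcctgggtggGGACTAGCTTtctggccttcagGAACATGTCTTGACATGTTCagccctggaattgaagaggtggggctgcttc

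The pair, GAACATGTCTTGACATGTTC, lies at chr17:29090928-29090947, 51 to 32 bases before that start, and a single half-site lies 73 to 64 bases before it. Of the pair, only the leading 10 bases match the half-site pattern, since the pair pattern asks for CATG cores and leaves the other bases free. The window of the other Cdkn1a start held neither a half-site nor the pair. Windows were found for 7 of the 10 members, and those of Bax, Mdm2 and Ccng1 each held 1 half-site, read on the gene's strand, while those of Phlda3, Plk2 and Btg2 held none. The half-sites lie at chr7:45467090-45467099 for Bax, chr10:117710935-117710944 for Mdm2 and chr11:40755462-40755471 for Ccng1, all on the minus strand.
Bax: AGGCAAGCTT
Mdm2: GAACTTGCCT
Ccng1: GGGCAAGCCT
A half-site was present in 8.36% of all 32851 windows and in 9.55% of the 27025 genes with a window, and the pair in 0.712% of windows. These are matches of letters in a short window and say nothing of binding. The 3 genes beside Cdkn1a that held a half-site were not called in either comparison.

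**Figure D2:**
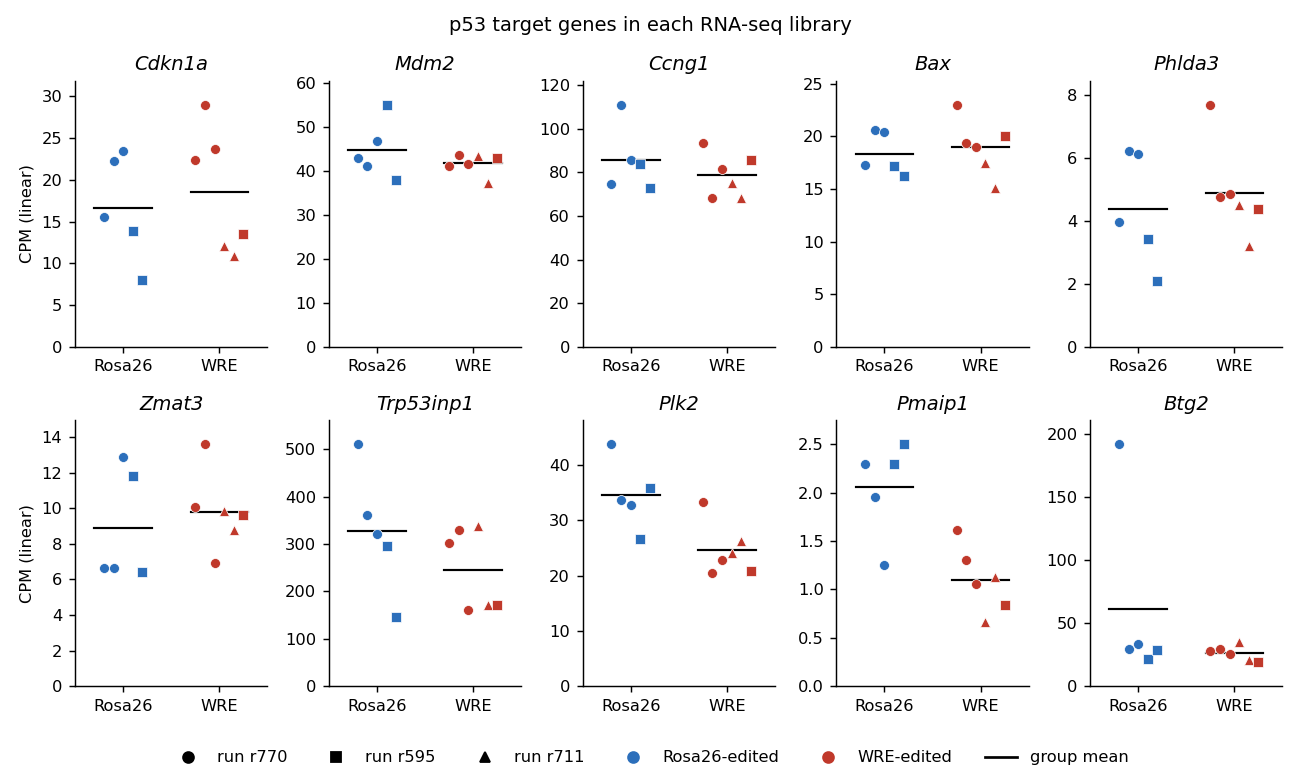
CPM of each p53 target on a linear axis from 0, with 1 point per library, marker by run and colour by group, and a bar at the group mean. Groups overlap for all 10 genes, Plk2 and Pmaip1 have most WRE-edited points below the Rosa26-edited ones, and 1 Rosa26-edited library of r770 stands at 191 CPM for Btg2.

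Plk2, a stress-induced polo-like kinase that acts in centriole duplication and checkpoint signalling, lies at chr13:110395044-110400844. In r770 it was 33.3, 20.4 and 22.8 CPM in the WRE-edited libraries and 43.7, 33.6 and 32.7 CPM in the Rosa26-edited ones. In r595 Plk2 was 20.9 CPM in the WRE-edited and 26.7 and 35.8 CPM in the Rosa26-edited libraries, and in r711 24.0 and 26.2 CPM. Of the 6 WRE-edited libraries, 5 lay below every Rosa26-edited one, and WRE-edited 1 was the exception. Its log2 fold change was -0.54 ± 0.17 (SE), with a 95% interval of -0.90 to -0.18 and an adjusted p of 0.398 (edgeR). Within r770 the difference was -0.54 and within r595 -0.56. Plk2 passed the threshold only when no filter on low counts was applied, at an adjusted p of 0.0497 (edgeR), a setting that called 1.62% of all genes.

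Pmaip1 encodes Noxa, a BH3-only protein that promotes apoptosis, and was the lowest member (chr18:66458604-66465558), with 486 counts over all 11 libraries. In r770 it was 1.61, 1.302 and 1.05 CPM in the WRE-edited and 2.29, 1.95 and 1.25 CPM in the Rosa26-edited libraries. In r595 Pmaip1 was 0.833 CPM in the WRE-edited and 2.29 and 2.50 CPM in the Rosa26-edited libraries, and in r711 0.666 and 1.13 CPM. Of the WRE-edited libraries, 4 of 6 lay below every Rosa26-edited one. In the fit the log2 fold change was -0.76 ± 0.32 (SE), with a 95% interval of -1.46 to -0.06 and an adjusted p of 0.465 (edgeR). The difference was -0.44 within r770 and -1.50 within r595, where 1 WRE-edited library stands against 2.

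Bax, the effector that permeabilises the mitochondrial outer membrane (chr7:45461695-45466903), had the smallest residual SD of the members. It was 19.0 to 22.9 CPM in the WRE-edited and 17.3 to 20.6 CPM in the Rosa26-edited libraries of r770, and the groups overlapped. In r595 it was 19.99 CPM in the WRE-edited and 17.2 and 16.2 CPM in the Rosa26-edited libraries, and in r711 17.5 and 15.1 CPM. The log2 fold change was 0.13 ± 0.12 (SE), with a 95% interval of -0.12 to 0.39 and an adjusted p of 0.699 (edgeR). The interval leaves room for a fold change of 0.917 to 1.31.

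The feedback genes Mdm2 and Ccng1 differed little between groups. Mdm2, the ligase that degrades p53 (chr10:117688875-117710758), was 37.4 to 43.8 CPM with a median of 42.3 in the WRE-edited libraries, and 43.1, 41.3, 46.8, 55.0 and 38.1 CPM in Rosa26-edited 1 to 5. Its log2 fold change was -0.07 ± 0.12 (SE), with a 95% interval of -0.34 to 0.20, and the sign turned to 0.045 with effective gene lengths as offsets. Ccng1, cyclin G1, which helps to switch Mdm2 back on (chr11:40748552-40755309), was 68.1 to 93.3 CPM with a median of 78.3 in the WRE-edited libraries, and 74.5, 111, 85.8, 83.6 and 72.8 CPM in Rosa26-edited 1 to 5. Its log2 fold change was -0.07 ± 0.14 (SE), with a 95% interval of -0.38 to 0.24. Leaving out WRE-edited 2 or Rosa26-edited 2 gave Ccng1 0.015 and 0.057, and leaving out Rosa26-edited 4 gave Mdm2 0.016. The adjusted p-values were 0.849 for Mdm2 and 0.873 for Ccng1 (edgeR).

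Trp53inp1, a nuclear protein that favours the phosphorylation of p53 and also acts in autophagy (chr4:11156441-11174379), was the most abundant member. In r770 it was 303, 330 and 162 CPM in the WRE-edited and 511, 362 and 322 CPM in the Rosa26-edited libraries. In r595 Trp53inp1 was 171 CPM in the WRE-edited and 296 and 145 CPM in the Rosa26-edited libraries, and in r711 339 and 171 CPM. The groups overlapped in both runs that hold both, with WRE-edited 2 above Rosa26-edited 3 in r770 and WRE-edited 6 between the Rosa26-edited libraries of r595. Its fitted log2 fold change was -0.52 ± 0.29 (SE), with a 95% interval of -1.14 to 0.10 and an adjusted p of 0.540 (edgeR). The difference was -0.63 within r770 and -0.28 within r595.

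Phlda3, which restrains Akt at the membrane (chr1:135766085-135769134), and Zmat3, a zinc finger protein that binds RNA (chr3:32334792-32365665), had positive values that did not pass the test. Phlda3 was 3.19 to 7.69 CPM with a median of 4.65 in the WRE-edited libraries, and 3.99, 6.22, 6.14, 3.44 and 2.09 CPM in Rosa26-edited 1 to 5. Its log2 fold change was 0.26 ± 0.24 (SE), with a 95% interval of -0.26 to 0.78 and an adjusted p of 0.7096 (edgeR). Zmat3 was 6.91 to 13.6 CPM with a median of 9.72 in the WRE-edited libraries, and 6.66, 6.62, 12.9, 11.8 and 6.43 CPM in Rosa26-edited 1 to 5. Its Rosa26-edited libraries fell into low and high values, and each of the 2 runs held both. The fit gave a log2 fold change of 0.18 ± 0.26 (SE), with a 95% interval of -0.39 to 0.76 and an adjusted p of 0.814 (edgeR). Zmat3 shares 177 bases with the noncoding gene 4930429B21Rik, and reads of these genes may not be told apart, since the sources used here do not give the strand setting.

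Btg2, an antiproliferative gene that p53 and growth signals both induce (chr1:134074865-134079155), was set by 1 library. In r770 it was 28.1, 29.1 and 25.4 CPM in the WRE-edited libraries and 191, 29.5 and 33.4 CPM in Rosa26-edited 1, 2 and 3. In r595 it was 18.9 CPM in the WRE-edited and 21.8 and 28.3 CPM in the Rosa26-edited libraries, and in r711 35.3 and 20.5 CPM. Within r770 it was the only member whose groups did not overlap, against 7.64% of all genes, and outside Rosa26-edited 1 the remaining gap was narrow. The fitted value was a log2 fold change of -1.24 ± 0.57 (SE), with a 95% interval of -2.54 to 0.06 and an adjusted p of 0.505 (edgeR), and without Rosa26-edited 1 it was -0.26. With no filter on low counts Btg2 was called, at an adjusted p of 2.7e-11 (edgeR), while DESeq2 gave it no p-value. The differences were -1.06 within r770 and -0.39 within r595.

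Rosa26-edited 1 was also the highest library for the immediate early genes, which respond within minutes to growth factors, stress or tissue dissociation. Their 13 members summed to 981 CPM there and to 167 to 408 CPM in the other 10 libraries. Atf3 was 149 CPM there and 6.02 to 19.9 CPM elsewhere, Fos 65.0 CPM against 4.36 to 22.6 CPM, and Jun 208 CPM against 34.5 to 139 CPM. Gadd45a, another p53 target that stress induces, was 5.95 CPM in this library and 1.03 to 1.82 CPM in the others. Plk2 and Trp53inp1 were highest in Rosa26-edited 1 as well, at 43.7 and 511 CPM, while Cdkn1a, Bax, Mdm2 and Ccng1 were not. In the edit comparison 0 of the 13 immediate early genes were called, where 0.00695% of all genes were. At an unadjusted p under 0.05 (edgeR) 0 were found, where 4.95% of all genes were higher and 5.14% lower. Values were negative for 11, against 48.3% of all genes, with a median of -0.45. The part of this library's early genes in the Btg2 value was not tested.

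**Figure D3:**
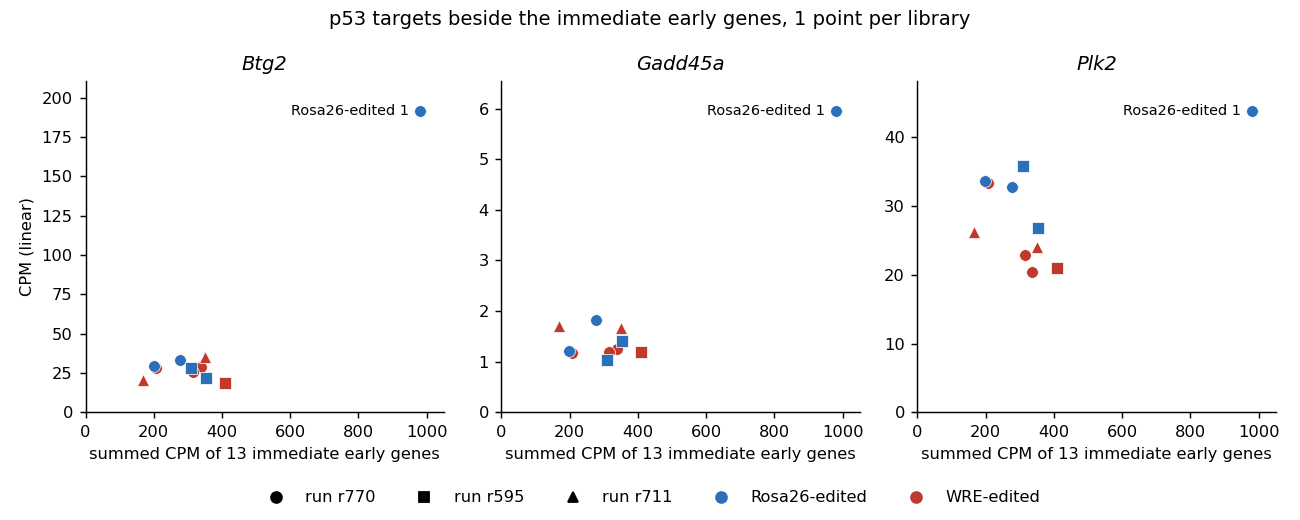
CPM of Btg2, Gadd45a and Plk2 (y axes, linear) against the summed CPM of 13 immediate early genes (x axis, linear), with 1 point per library, marker by run and colour by group. Rosa26-edited 1 stands at 981 CPM on the x axis, apart from the other 10 libraries at 167 to 408, and is the highest point for each of the 3 genes.

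The spread between libraries differed among the members. After the run and the group were fitted, the residual SD of log2 CPM was 0.13 for Bax, 0.16 for Mdm2 and 0.22 for Ccng1, and 0.46 for Zmat3, 0.53 for Trp53inp1 and 0.86 for Btg2. Each was set beside the 500 tested genes closest in level. By this measure Btg2 stood at percentile 99.0, Trp53inp1 at 95.4 and Zmat3 at 91.2, while Mdm2 stood at 29.8 and Bax at 11.6. Cdkn1a stood at 74.4, Phlda3 at 72.6, Plk2 at 71.0, Ccng1 at 61.0 and Pmaip1 at 39.8. The widest half-width of a 95% interval on the edit effect was 1.297 on the log2 scale, for Btg2, and the narrowest 0.26, for Bax. From the highest to the lowest library the ratio of CPM was 10.1 for Btg2, 3.63 for Cdkn1a and 1.47 for Mdm2.

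Per gene length, in the authors' TPM values, the order of the members' levels ran from Trp53inp1 to Pmaip1. The mean over 11 libraries was 50.1 ± 18.8 (SD) for Trp53inp1, 17.8 ± 2.41 for Bax, 16.8 ± 2.59 for Ccng1, 14.7 ± 3.51 for Mdm2 and 10.8 ± 11.4 for Btg2. It was 8.93 ± 2.50 for Plk2, 6.93 ± 2.19 for Cdkn1a, 2.50 ± 0.62 for Phlda3, 1.04 ± 0.39 for Zmat3 and 0.48 ± 0.21 for Pmaip1. Neighbours in this order had separate ranges only between Trp53inp1 and Bax and between Cdkn1a and Phlda3, and the other neighbours overlapped.

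Between the runs, beside Cdkn1a, Phlda3 and Trp53inp1 reached an unadjusted p under 0.05, so that 3 members did, where 30.8% of all genes did. Phlda3 was 3.99 to 7.69 CPM in r770, 2.09 to 4.38 in r595 and 3.19 to 4.52 in r711. Its log2 fold change in r595 against r770 was -0.74 ± 0.26 (SE), with an adjusted p of 0.0742 (edgeR). Trp53inp1 was 162 to 511 CPM in r770, 145 to 296 in r595 and 171 to 339 in r711, and its value was -0.77 ± 0.31 (SE), with an adjusted p of 0.114 (edgeR). DESeq2 and a fit with effective gene lengths each called both of these with Cdkn1a, 3 members in all, where 10.6% and 20.4% of all genes were called. Over the 10 members 7 run values were negative, against 49.4% of all genes, and 3 positive, with a median of -0.20 beside 0.01 over all genes. Mdm2, at 0.07, and Zmat3, at 0.01, had small values with 95% intervals of -0.22 to 0.35 and -0.60 to 0.62.

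**Figure D4:**
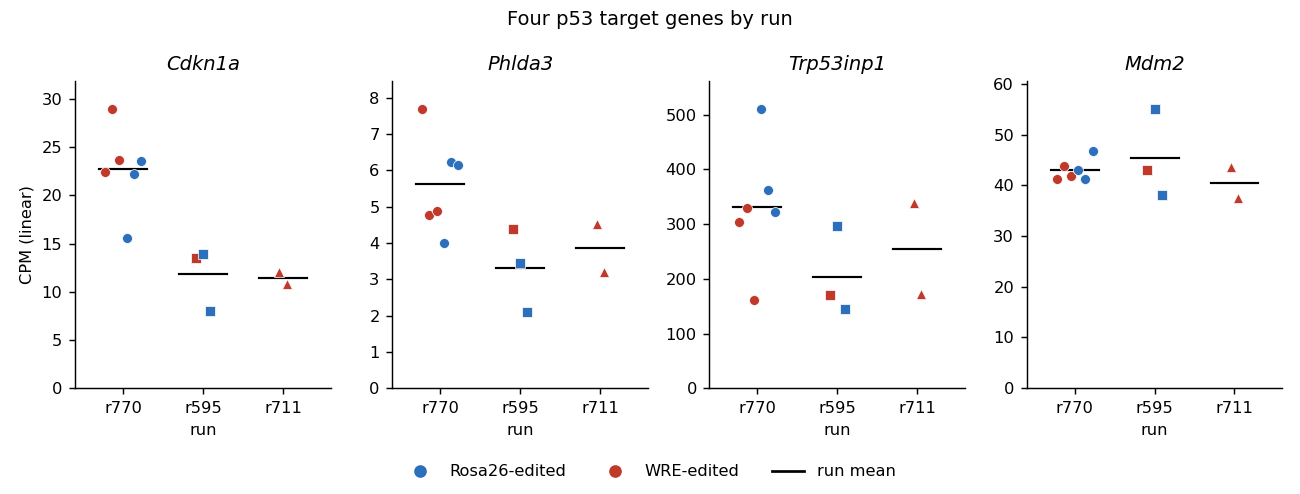
CPM (linear axis from 0) of Cdkn1a, Phlda3, Trp53inp1 and Mdm2 by run, with 1 point per library, colour by group and a bar at the run mean. All r770 libraries of Cdkn1a, at 15.6 to 29.0, lie above those of r595 and r711, whereas the runs overlap for the other 3 genes.

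After the mean of each run was subtracted, the members did not follow Cdkn1a as 1 group over the 9 libraries of r770 and r595. Pearson's r of log2 CPM with Cdkn1a was 0.74 for Zmat3, 0.63 for Phlda3 and 0.54 for both Mdm2 and Bax. It was 0.16 for Ccng1 and -0.06 for Trp53inp1, and it was -0.62 for Pmaip1, -0.72 for Btg2 and -0.85 for Plk2. The group mean was not subtracted, so differences between the groups enter these values. Rosa26-edited 1 was the r770 library highest for Btg2, at 191 CPM, and lowest for Cdkn1a, at 15.6 CPM. The genes most like Cdkn1a by this measure were Zbtb49 at 0.96, Med18 at 0.95, Adcy1 and A330040F15Rik at 0.94 and Trmu at 0.92. Their levels were low, at 0.918 to 2.48 CPM for Zbtb49, 0.551 to 2.31 for Med18 and 0.477 to 4.43 for Adcy1. A330040F15Rik was at 0.147 to 0.636 CPM and Trmu at 4.31 to 7.85. Zbtb49 is a zinc finger protein and Med18 a subunit of the Mediator complex. These are descriptions over 9 libraries that share runs and groups, and they were picked as the highest of all genes tested.

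Trp53, which encodes p53 itself, was 8.27, 9.11 and 10.8 CPM in the WRE-edited and 7.56, 9.06 and 9.92 CPM in the Rosa26-edited libraries of r770. Over all libraries it was 7.56 to 10.8 CPM, and its log2 fold change was 0.17 ± 0.14 (SE) with an adjusted p of 0.685 (edgeR). Mdm4, the partner of Mdm2 that blocks p53 activity, was 21.8 to 44.9 CPM with a log2 fold change of -0.20 ± 0.21 (SE) and an adjusted p of 0.734, and its sign turned to 0.011 within r770. Of the 18 genes listed as p53 and its regulators, 15 were tested and 0 were called, where 0.00695% of all genes were. At an unadjusted p under 0.05 (edgeR) 0 were found, where 4.95% of all genes were higher and 5.14% lower. The median of the 15 was -0.01. The smallest p-values among them belonged to Atr, the kinase of stalled replication forks, at -0.33, the ribosomal protein gene Rpl11 at 0.25, the p53 kinase Hipk2 at 0.36 and the checkpoint kinase Chek1 at -0.52. Atr was 0.0027 without the run term, and Rpl11 has processed copies in the genome among which its reads could be split.

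The wider set of p53 targets had no member called between the groups. Of 34 other targets 30 were tested and 0 were called, where 0.00695% of all genes were. Values were positive for 15 and negative for 15, where 48.3% of all genes were negative, with a median of 0.01. Polk, a translesion polymerase, was the only one at an unadjusted p under 0.05, on the lower side, where 5.14% of all genes were. Its log2 fold change was -0.36 ± 0.13 (SE), with an adjusted p of 0.441 (edgeR). The next were Gadd45a at -0.94, which was -0.23 without Rosa26-edited 1, Tigar, a regulator of glycolysis, at 0.22, and the phosphatase Ppm1d at 0.22. Between r595 and r770, Xpc and Ei24 were higher and Fas, Fdxr and Rps27l lower (adjusted p under the threshold), 5 of 30 where 16.2% of all genes were called, as were Rpl11 higher and Rpl5 lower among the regulators. These genes are named because few of each list were called, after their values were seen.

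Among 19 genes of double-strand break repair, the process that seals a Cas9 cut, 19 were tested and 0 were called, where 0.00695% of all genes were. Values were negative for 15, against 48.3% of all genes, and positive for 4, with a median of -0.13. Brca1 and Prkdc, which act in homologous recombination and in end joining, reached an unadjusted p under 0.05 on the lower side, where 5.14% of all genes did, at -0.76 ± 0.27 and -0.56 ± 0.21 (SE), both with an adjusted p of 0.441 (edgeR). Brca2 was -0.53. Brca1 was 0.034 and Brca2 0.66 with effective lengths as offsets, and Prkdc was 0.086 and Brca2 0.20 without the run term, so these signs depend on the fit. Between runs Xrcc5 and Nhej1 were lower in r595, the only 2 called of 19, where 9.07% of all genes were lower, named after their values were seen. DESeq2 called 0 genes of these lists in the edit comparison, where it called 0.361% of all genes.

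The DREAM complex represses cell cycle genes when p53 raises p21. Of 14 such genes 13 were tested and 0 were called by edgeR, where 0.00695% of all genes were. At an unadjusted p under 0.05 (edgeR), 13 of 13 were lower, where 5.14% of all genes were, and their median was -1.06. Their summed level in r770 was 74.7, 76.8 and 38.7 CPM in the WRE-edited and 121, 121 and 97.4 CPM in the Rosa26-edited libraries. In r595 the sum was 33.9 CPM in the WRE-edited and 106 and 115 CPM in the Rosa26-edited libraries. The 2 WRE-edited libraries of r711, at 121 and 141 CPM, were as high as or above every Rosa26-edited one, and that run has no control. WRE-edited 4, at 121 CPM in r711, and WRE-edited 6, at 33.9 CPM in r595, are the libraries whose names share a number. The r595 value of the WRE-edited group rests on WRE-edited 6 alone, and the part of the run in these sums was not tested. DESeq2 called 5 of these genes lower, Bub1, Ccna2, Ccnb1, Cdk1 and Top2a, where 0.361% of all genes were called, and edgeR with no filter on low counts called 10 lower, where 1.62% were. Cdkn1a itself was not called by either. Stellate cell and fibroblast markers were negative for 6 of 6 genes, with a median of -0.58 and sums of 39.5 to 100 CPM in the WRE-edited and 67.2 to 95.5 CPM in the Rosa26-edited libraries. Macrophage markers were negative for 5 of 5, with a median of -0.44 and sums of 152 to 268 against 161 to 408 CPM. Fewer cells of a type and less RNA per cell cannot be told apart in such bulk samples, and the part of other cell types in these values was not tested. Endothelial markers were negative for 5 of 5, with a median of -0.22, and those of neutrophils for 3 of 3 tested, with a median of -0.69. On the lymphocyte list only Nkg7 and Ptprc were tested, and 2 of 2 were negative, with a median of -0.51. Of 2 cholangiocyte markers tested, Sox9 was positive and Spp1 negative. Over all genes tested 48.3% were negative. At an unadjusted p under 0.05 (edgeR), 1 cholangiocyte marker was higher and 1 stellate cell and fibroblast marker lower, and the other marker lists had 0. Over all genes 4.95% were higher and 5.14% lower at that level. None of the genes of these marker lists was called in the filtered fit, where 0.00695% of all genes were.

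**Figure D5:**
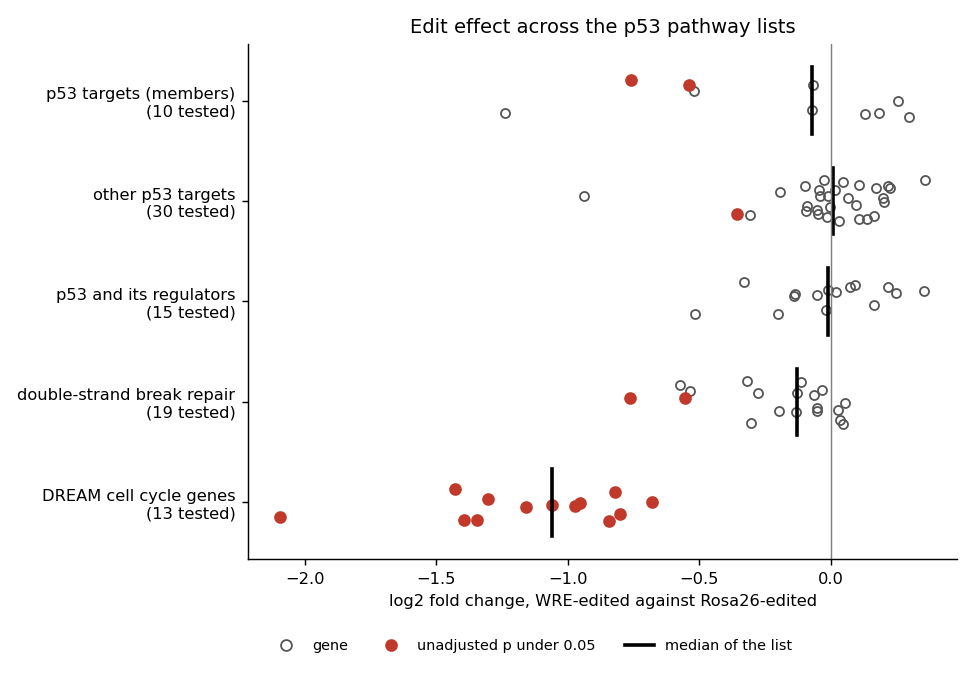
Log2 fold change, WRE-edited against Rosa26-edited (x axis), of each tested gene in 5 lists, with filled points at an unadjusted p under 0.05 and a bar at the median of the list. Medians lie at -0.07 for the members, 0.01 for the other p53 targets, -0.01 for p53 and its regulators, -0.13 for double-strand break repair and -1.06 for the DREAM cell cycle genes; no gene shown was called after adjustment in the filtered edgeR fit.

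The miRNAs linked to p53 were read in separate miRNA-seq libraries of 1393509 to 2011383 counts. Some of these have names that share a number with RNA-seq libraries of r595 and r711. The labels do not say whether they come from the same animals. miR-34a is the miRNA most directly induced by p53, and miR-192, miR-194 and miR-215 are abundant or related liver miRNAs also reported as p53-linked. Their mature sequences (RefSeq, GRCm38.p6) are shown with bases 2 to 8, the seed, in capitals, because miR-192-5p and miR-215-5p share it.
mmu-miR-34a-5p: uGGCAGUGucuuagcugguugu
mmu-miR-192-5p: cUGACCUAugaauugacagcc
mmu-miR-215-5p: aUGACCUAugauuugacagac
mmu-miR-194-5p: uGUAACAGcaacuccaugugga

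miR-34a-5p was 6178, 4879 and 6653 CPM in the WRE-edited and 8768, 7460 and 6870 CPM in the Rosa26-edited libraries. Every WRE-edited library was below every Rosa26-edited one, and 14.1% of the 355 miRNAs tested had groups that did not overlap. The log2 fold change was -0.38 ± 0.21 (SE), with a 95% interval of -0.85 to 0.09 and an adjusted p of 0.597 (edgeR's quasi-likelihood test over 355 miRNAs). Of the 4 p53-linked miRNAs tested 0 were called and 0 reached an unadjusted p under 0.05, where 0 of 355 miRNAs (0%) were called and 39 (11%) reached it, and DESeq2 called none of the 4. miR-192-5p had a log2 fold change of 0.08 ± 0.24 and miR-194-5p of -0.14 ± 0.24 (SE). miR-215-5p, at 40 to 94 counts a library, had 0.28 ± 0.27. miR-34a-3p had 3 to 10 counts a library and was not tested, and miR-34b and miR-34c were not analysed here.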

How the data were processed

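Each RNA-seq library has a deposited table of expected counts by Ensembl gene, per the file headers. The submitters' processing notes name STAR 2.7.6a, RSEM 1.3.1 and the build GRCm38. TPM and other values (effective length) come from the same deposited tables, per the file headers. No source used here gives the annotation version or strand setting. Deposited miRNA values were counts per mature miRNA, and no source used here gives their aligner.

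Expected counts were rounded and tested in R 4.3.3 with edgeR 4.0.16 (filterByExpr by group with a minimum count of 10 and total of 15, TMM, robust quasi-likelihood fit, two-sided, 7 residual degrees of freedom). The run and the group were terms, so r711, which has no control, added to the spread alone. Adjustment was by Benjamini-Hochberg over all genes, with a threshold of 0.05. CPM used TMM factors, and log2 CPM a prior count of 0.5. The miRNA fit held the group. Runs were read from library names and matched the deposited design table for 11 of 11 libraries. Of 55536 identifiers 55450 had a symbol. The fit was tested on simulated data.

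The members and lists were chosen with earlier results of these data known. Named genes are all members, Trp53, Mdm4, up to 4 per pathway list by smallest p, the 5 most like Cdkn1a, Rian and the p53-linked miRNAs. The values of 1 gene of a pathway list are not reported here. Alternatives were DESeq2 1.42.0, RLE factors, no filter, mitochondrial genes left out, effective lengths as offsets, no run term, r770 alone, replicate blocks, WRE-edited 4 and 6 summed, and each library left out.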

Additional observations from a re-analysis of the deposited data

Results flagged for a closer look

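In 48 groups of 24 genes, the highest or lowest library was set against the others by Dixon's ratio, and 5 passed. For libraries of 1 kind chance passes it in about 1 of 20 groups. Each group here pools runs, so that rate need not hold. Phlda3 was 7.69 CPM in WRE-edited 1, and the next WRE-edited library was at 4.87. Btg2 was 191 CPM and Gadd45a 5.95 CPM in Rosa26-edited 1, with the next Rosa26-edited libraries at 33.4 and 1.82 CPM. Rpl11 was 212 CPM in WRE-edited 6, next 139. Brca2 was 9.01 CPM in WRE-edited 5, next 4.23.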

How the results depend on the processing

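The 10 p53 targets had 0 calls with editing under 20 of 21 alternatives. With no filter on low counts 2 were called, Btg2 and Plk2, and over all genes that setting called 132 higher and 318 lower, against 40 and 60 with DESeq2 and 0 and 1 in the fit reported. Their median stayed between -0.12 and -0.02. The other p53 targets, the p53 regulators, the repair genes and the p53-linked miRNAs had 0 calls under every alternative run, as did the 10 targets in the difference between runs. The DREAM genes had 5 calls with DESeq2 and 10 with no filter, which also called 4 immediate early genes and 5 genes of the cell type marker lists. Between r595 and r770 DESeq2 called 3 members, no filter 4 and effective lengths 3, where 10.6%, 10.5% and 20.4% of all genes were called. Cdkn1a remained called in all 16 alternatives, from -1.12 to -0.72, with an adjusted p of at most 0.0473 (edgeR, without WRE-edited 6). Rian lost its call without the run term, in r770 alone, with the replicate block without the run term, and when Rosa26-edited 2 or 1 of WRE-edited 2 to 6 was left out (adjusted p up to 0.317, edgeR), at -2.45 to -1.85 throughout.

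Signs turned as follows, and the cause was not tested. Effective lengths gave Mdm2 0.045, Brca1 0.034 and Brca2 0.657 with editing, and Zmat3 -0.096 and Pmaip1 -0.0089 between runs, where no filter gave Zmat3 -0.015. Without the run term Atr was 0.0027, Prkdc 0.086 and Brca2 0.200, and r770 alone gave Mdm4 0.011. Summing WRE-edited 4 and 6 gave Rpl11 -0.016, Prkdc 0.111 and Brca2 0.237. Leaving out 1 library at a time gave Mdm2 -0.118 to 0.016 and Ccng1 -0.158 to 0.057 with editing, Mdm2 -0.098 to 0.175, Ccng1 -0.207 to 0.012, Zmat3 -0.270 to 0.246 and Pmaip1 -0.122 to 0.385 between runs, and miR-192-5p -0.086 to 0.259 and miR-194-5p -0.313 to 0.023.

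Same-numbered libraries of r770 had correlations of their deviations of 0.10, -0.23 and -0.10, and differently numbered ones -0.11 to 0.20. Deviations of 3 libraries from their own mean depend on each other, so these values cannot settle whether the numbers pair them. The replicate block called 0 members with and without the run term. With the run term it gave Mdm4 0.012, and without it Mdm4 0.016, Tigar -0.106, Atr 0.052, Rpl11 -0.146, Prkdc 0.169 and Brca2 0.091. Depth limits Pmaip1 most, at 486 counts in all.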
